A study of Homo sapiens with 11 samples.

Results

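The genes described here are CDYL2, GPSM1, PHLDA1, TIMP3, MAPRE3, TMCC2, CST3 and ZNF605, whose mRNAs carried strong ZFP36L2 peaks in the 3' UTR in THP1 cells while the MOLM13 tables listed none for them. They are 8 of the 6824 gene names in the 4 tables of peaks over input. The assay was eCLIP (enhanced crosslinking and immunoprecipitation): ultraviolet light joins proteins to the RNA they touch, and the RNA recovered with an antibody is sequenced. THP1 and MOLM13 are established human acute myeloid leukaemia lines, each standing for 1 leukaemia and grown in the same medium, with no treatment stated. Each line had 2 immunoprecipitates (IP) with an antibody to ZFP36L2 (ab70775) and 2 with control IgG, and there was 1 size-matched input library for THP1 and 2 for MOLM13, or 11 libraries in all. The labels do not say whether the 2 libraries of a kind had their own cultures, and their spread may be technical.

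ZFP36L2 belongs to a family of zinc finger proteins that bind AU-rich elements in the 3' UTRs of mRNAs and recruit the machinery that shortens the poly(A) tail, after which the mRNA decays. In blood cells the family restrains cytokine and immediate early mRNAs and takes part in the balance between proliferation and differentiation. An eCLIP peak marks crosslinked RNA and not a change in the mRNA's level.

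The 8 genes were picked on measured values. A gene belonged to their class when a 3' UTR peak of THP1 replicate 1 shared at least 1 base with one of replicate 2, when both MOLM13 lists held clusters in the gene, and when neither MOLM13 table held a peak under its name. Of 1452 protein-coding genes with such a THP1 site, 108 (7.44%) met this, and the 8 genes come first in it when ordered by the lower of the THP1 log2 folds over input. A peak here is a cluster of reads that reached 3 both in log2 fold and in −log10 p, as the authors' tables list it. ZNF605 was the last gene inside the choice, at 5.99 and 5.15 over input in THP1 replicates 1 and 2. WWC2, the first outside, had 5.04 and 5.16. The folds over input and the absence of MOLM13 peaks are therefore descriptions and no finding. The folds over IgG come from the same IP libraries and are likewise given without a test. With 2 IP per line, no difference between the lines was tested for any gene.

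The deposited IgG lists held 153162 and 143910 clusters in THP1 and 140287 and 182486 in MOLM13. Their median log2 folds over IgG were 0.0019 and 0.38 in THP1 and 0.28 and −0.60 in MOLM13. Read depths of the libraries are unknown. Of 10 monocytic and myeloid marker genes, 7 had clusters in both THP1 replicates and 6 in both MOLM13 replicates. Summed over the 10 genes, there were 124 and 140 clusters in THP1 and 148 and 170 in MOLM13. CD14 and FCGR1A had none in any list. ITGAM had 8 and 7 in THP1 and none in MOLM13, while MPO had none in THP1 and 3 and 2 in MOLM13. Of 4 lymphoid markers none had clusters in both replicates of a line. Of 4 erythroid markers only EPOR did, with 5 and 4 in THP1 and 4 and 5 in MOLM13. All folds and −log10 p values per peak are the authors', and values are given for replicate 1 and then replicate 2 of a line. Coordinates are 1-based on hg38 and, for a site, belong to the replicate 1 peak.

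The first group acts in the nucleus or in signal relay. CDYL2 encodes a chromodomain protein that recognises methylated histone H3. Its site lay at chr16:80603590-80603668 on the minus strand, 5683 bases from the 3' end of the gene in RefSeq. The log2 fold over input was 7.07 and 6.39 in THP1, and over IgG it was 5.82 and 5.38 in THP1, against 1.87 and 1.10 for the overlapping MOLM13 clusters. The −log10 p over IgG was 40.8 and 41.6 in THP1, against 0.524 and 0.150 in MOLM13. Both THP1 replicates were thus far above IgG, and both MOLM13 lists held a cluster at the same place that was not. The site was the strongest part of a 174-base region in which all 5 THP1 peaks (3 in replicate 1 and 2 in replicate 2) passed the thresholds over IgG.

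CDYL2 was also occupied in introns. Peaks of both THP1 replicates overlapped at chr16:80748040-80748130, where log2 folds were 5.55 and 4.95 over input, and 3.31 and 3.95 over IgG. Both replicates also overlapped at chr16:80762123-80762205, with 4.40 in each replicate over input, and 4.16 and 4.40 over IgG. Another intron region, at chr16:80679266-80679377, had 3.92 and 4.08 over input but missed the IgG thresholds in both replicates. At the first of these regions MOLM13 replicate 1 held a cluster at −0.72 over IgG, and at the next MOLM13 replicate 2 held one at −0.28. A further intron peak of replicate 1, at chr16:80757940-80758040, had no partner over input, although a replicate 2 cluster at chr16:80757932-80758051 reached 3.55 over IgG. Nearer the 3' end of CDYL2, replicate 1 had a 3' UTR peak of 3.35 over input and replicate 2 one of 3.19, at different places, and neither passed over IgG.

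GPSM1 encodes a regulator of heterotrimeric G proteins that binds inhibitory alpha subunits. Its site at chr9:136359465-136359510, on the plus strand, lay 91 bases from the RefSeq 3' end of the gene. The log2 fold over input was 7.35 and 6.49 in THP1, and over IgG 5.10 and 4.48. In MOLM13 replicate 1 no cluster shared a base with the site, and in replicate 2 a cluster sharing 15 bases stood at −1.60 over IgG. The site was one compact region, with 3 touching peaks over 105 bases in replicate 1 and a single peak of 107 bases in replicate 2. No other peak was listed for GPSM1. In RefSeq one end of DNLZ overlaps part of the site, and the authors named the peaks GPSM1 alone.

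PHLDA1 encodes a pleckstrin homology-like protein, induced by growth factors and stress, that takes part in the control of cell death. Its site at chr12:76029730-76029835 on the minus strand, 4283 bases from the RefSeq 3' end, had log2 folds of 6.12 and 5.75 over input in THP1, and of 3.88 and 3.17 over IgG. The overlapping MOLM13 clusters had 0.28 and 0.86 over IgG. The value of 0.28 is the most common one of that list and was shared by 27021 clusters (19.3%). An upstream neighbour peak in the same 3' UTR, touching the site in replicate 1 and just short of it in replicate 2, stood at 4.33 and 5.19 over input, and at 4.09 and 4.18 over IgG. PHLDA1 therefore had a pair of adjoining THP1 peaks, each past both controls in both replicates, and in MOLM13 replicate 2 a single cluster reached into both. Another 3' UTR peak of replicate 1, at chr12:76027356-76027451, had 3.73 over input, no partner in replicate 2 and 1.49 over IgG.

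ZNF605 encodes a zinc finger protein of a cluster of such genes near the end of chromosome 12. Its site at chr12:132922801-132922866 on the minus strand, 4495 bases from the RefSeq 3' end, gave 4.75 and 5.14 over IgG in THP1. MOLM13 clusters overlapping it had 1.70 and 1.86 over IgG. The −log10 p of the cluster in MOLM13 replicate 2 was 0.622, the highest of the MOLM13 clusters sharing bases with any of the 8 sites. A touching upstream peak, placed in an intron in replicate 1 and in the 3' UTR in replicate 2 by the authors' annotation, had 3.01 and 4.33 over input and missed the IgG thresholds at 1.18 and 2.33. Intron peaks named for both CHFR and ZNF605 were not counted, since their gene cannot be told. The strongest of them, at chr12:132934215-132934271, had THP1 folds of 6.61 and 6.78 over input, and its IgG folds were 3.37 and 4.19.

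The second group is secreted. TIMP3 encodes an inhibitor of metalloproteinases that binds to the extracellular matrix and also acts on the shedding enzyme that releases tumour necrosis factor. Its site at chr22:32862906-32862938 on the plus strand lay 103 bases from the RefSeq 3' end, within the bounds of SYN3, which runs on the opposite strand. The log2 fold over input was 5.93 and 6.59 in THP1, and over IgG it was 4.69 and 7.17. The replicate 2 peak behind the higher value spans 10 bases, and its replicates differed by 2.48 over IgG, the widest gap among the 8 genes. The longer touching peak at chr22:32862939-32863021 gave 5.14 and 5.06 over input, with the −log10 p at its cap of 400 in both replicates, and it gave 4.80 and 6.14 over IgG. No MOLM13 cluster lay within this region in either replicate, which made TIMP3 the only one of the 8 genes without a MOLM13 cluster at its site.

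TIMP3 was also occupied outside its strongest site. A 3' UTR region at chr22:32861083-32861158 stood at 3.64 and 3.23 over input, and at 3.39 and 3.08 over IgG. An intron region at chr22:32836447-32836588 gave 6.42 and 5.01 over input, and 4.17 and 3.01 over IgG. Clusters at chr22:32861798-32861858 in replicate 1 and chr22:32861805-32861857 in replicate 2 reached 3.29 and 5.60 over IgG without being listed over input. Against IgG alone, 6 of 29 and 9 of 39 clusters of the gene passed in THP1, and 0 of 1 and 0 of 4 in MOLM13. Of all clusters, 5.74% and 8.36% passed in THP1 and 5.11% and 2.49% in MOLM13. The gene was chosen on folds from the same IP libraries, and nothing is read from these counts.

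CST3 encodes cystatin C, a secreted inhibitor of cysteine cathepsins. Its only peak, at chr20:23629445-23629539 on the minus strand and 2739 bases from the RefSeq 3' end, gave 5.23 and 5.42 over input in THP1, and 3.98 and 3.42 over IgG. The MOLM13 clusters at that place had 1.02 and −0.72 over IgG. Both THP1 replicates passed both controls and both MOLM13 replicates lay below the IgG threshold.

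The remaining genes encode a cytoskeletal and a membrane protein. MAPRE3 encodes an end-binding protein that tracks the growing ends of microtubules. Its site at chr2:27026491-27026576 on the plus strand gave 5.71 and 6.35 over input in THP1, and 4.46 and 3.76 over IgG. The 2 peaks of this pair share 1 base. Paired instead by at least 0.5 of the shorter peak, the site moved to chr2:27026590-27026651, where the folds were 4.95 and 6.35 over input, and 3.70 and 3.76 over IgG. In replicate 2 the peak that covers most of the first interval had 3.55 over input and missed the IgG threshold at 2.55. The MOLM13 clusters of the region had 1.28 over IgG in replicate 1, sharing 14 bases with the site, and −0.28 in replicate 2, sharing none. A further 3' UTR peak of THP1 replicate 1, at chr2:27026843-27026902, had 4.28 over input, no partner in replicate 2 and 1.45 over IgG.

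TMCC2 encodes a protein with transmembrane and coiled-coil segments. Its only peak, at chr1:205272851-205272972 on the plus strand, had 5.26 and 5.55 over input in THP1. Over IgG it had 2.43 and 2.55 in THP1, against 1.02 and −1.60 for the overlapping MOLM13 clusters. TMCC2 was the only one of the 8 genes whose site missed the fold threshold over IgG in THP1, and it did so in both replicates, although its −log10 p of 3.45 and 4.88 passed.

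**Figure D1:**
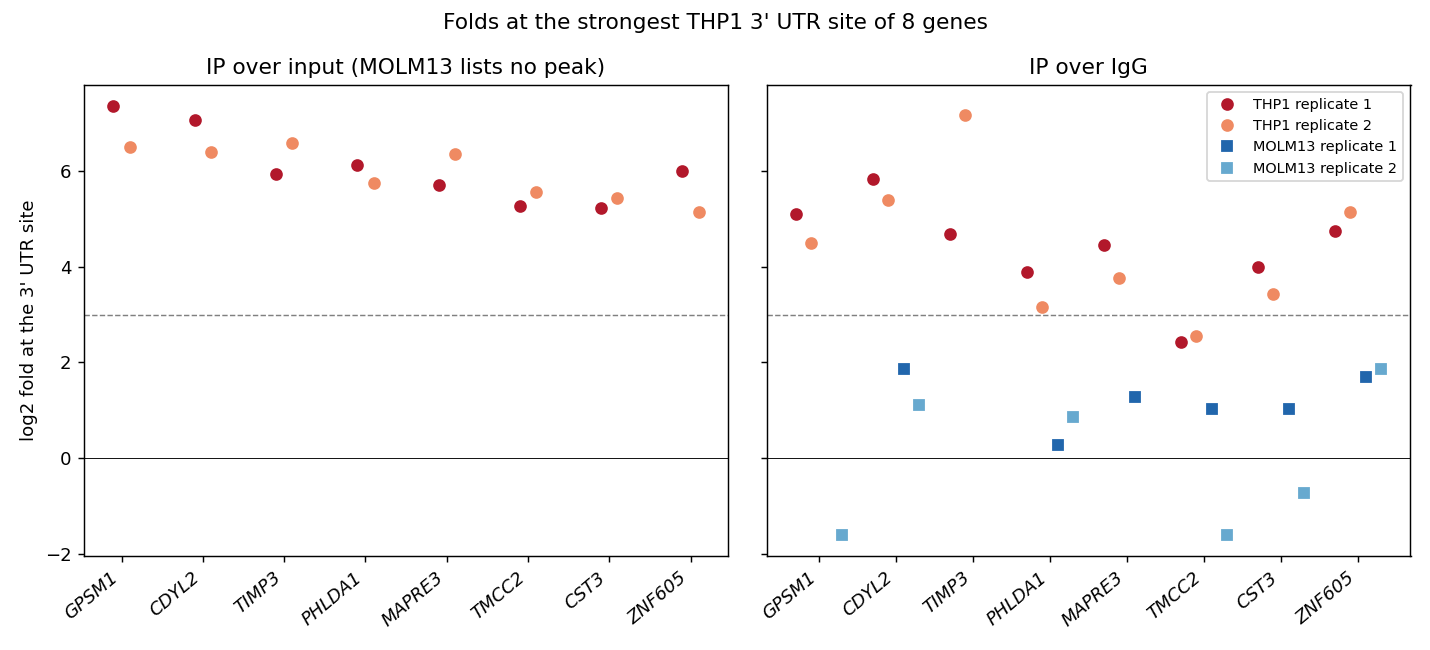
Log2 fold of the ZFP36L2 IP at the strongest THP1 3' UTR site of each of 8 genes, over input (left) and over IgG (right). Each point is 1 IP library (THP1 circles, MOLM13 squares at clusters that share a base with the site), and the dashed line marks the threshold of 3. All THP1 points over IgG lie above 3 except those of TMCC2 (2.43 and 2.55), and the highest MOLM13 point is 1.87 for CDYL2.

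At their sites, 7 of the 8 genes were enriched over IgG in both THP1 replicates. Among all 1452 THP1 genes with a reproducible 3' UTR site 57.5% were, and among the 100 other genes of the class 29. The median log2 fold over IgG of the 8 sites was 4.57 and 4.12, against 2.85 and 3.38 for those 100 genes. The choice by high fold over input in the same IP bears on this count, and nothing is read from the gap. With thresholds of 4 for the log2 fold and 5 for the −log10 p, 4 of the 8 sites passed, those of CDYL2, GPSM1, TIMP3 and ZNF605.

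**Figure D2:**
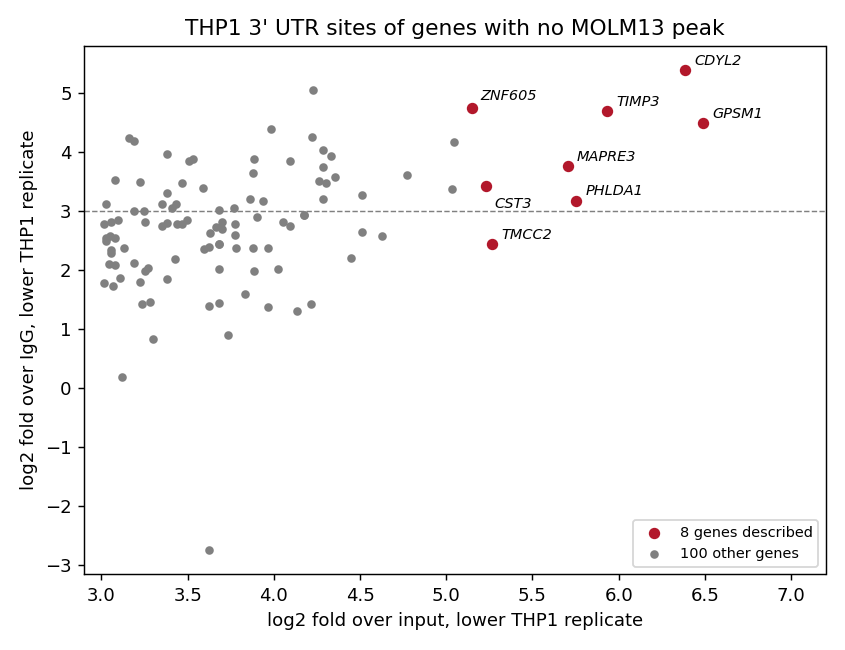
Lower of the THP1 replicates' log2 folds over input (x axis) and over IgG (y axis) at the 3' UTR site, for 8 genes (red) and the 100 other genes of their class (grey), with 1 point per gene and a dashed line at 3. The red points lie at 5.15 or more on the x axis because the genes were chosen on it, and on the y axis they run from 2.43 for TMCC2 to 5.38 for CDYL2.

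WWC2, DMXL2 and RYK followed ZNF605 in the order over input. DMXL2 had 5.03 and 5.91 over input and RYK 4.86 and 4.77. Likeness was measured as the Euclidean distance to the median of the 8 genes over 4 values, the log2 folds over input and over IgG in both THP1 replicates. The nearest genes of the class were WWC2 at 1.30, DMXL2 at 1.62 and OTX1 at 1.80. At their sites the log2 fold over IgG was 4.80 and 4.16 for WWC2, 3.37 and 3.59 for DMXL2, and 5.09 and 3.92 for OTX1.

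MOLM13 IP libraries also yielded clusters at most of these sites. In both MOLM13 replicates a cluster shared at least 1 base with the site in 5 of the 8 genes, CDYL2, PHLDA1, TMCC2, CST3 and ZNF605. GPSM1 had one in replicate 2 and MAPRE3 one in replicate 1, and with a margin of 50 bases MAPRE3 had one in both. Of all 1452 THP1 genes, 95% had such clusters in both MOLM13 replicates. None of the MOLM13 clusters at the 8 sites was enriched over IgG. Because membership excludes genes with a MOLM13 peak over input, a low fold over IgG in the same IP is no independent result.

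**Figure D3:**
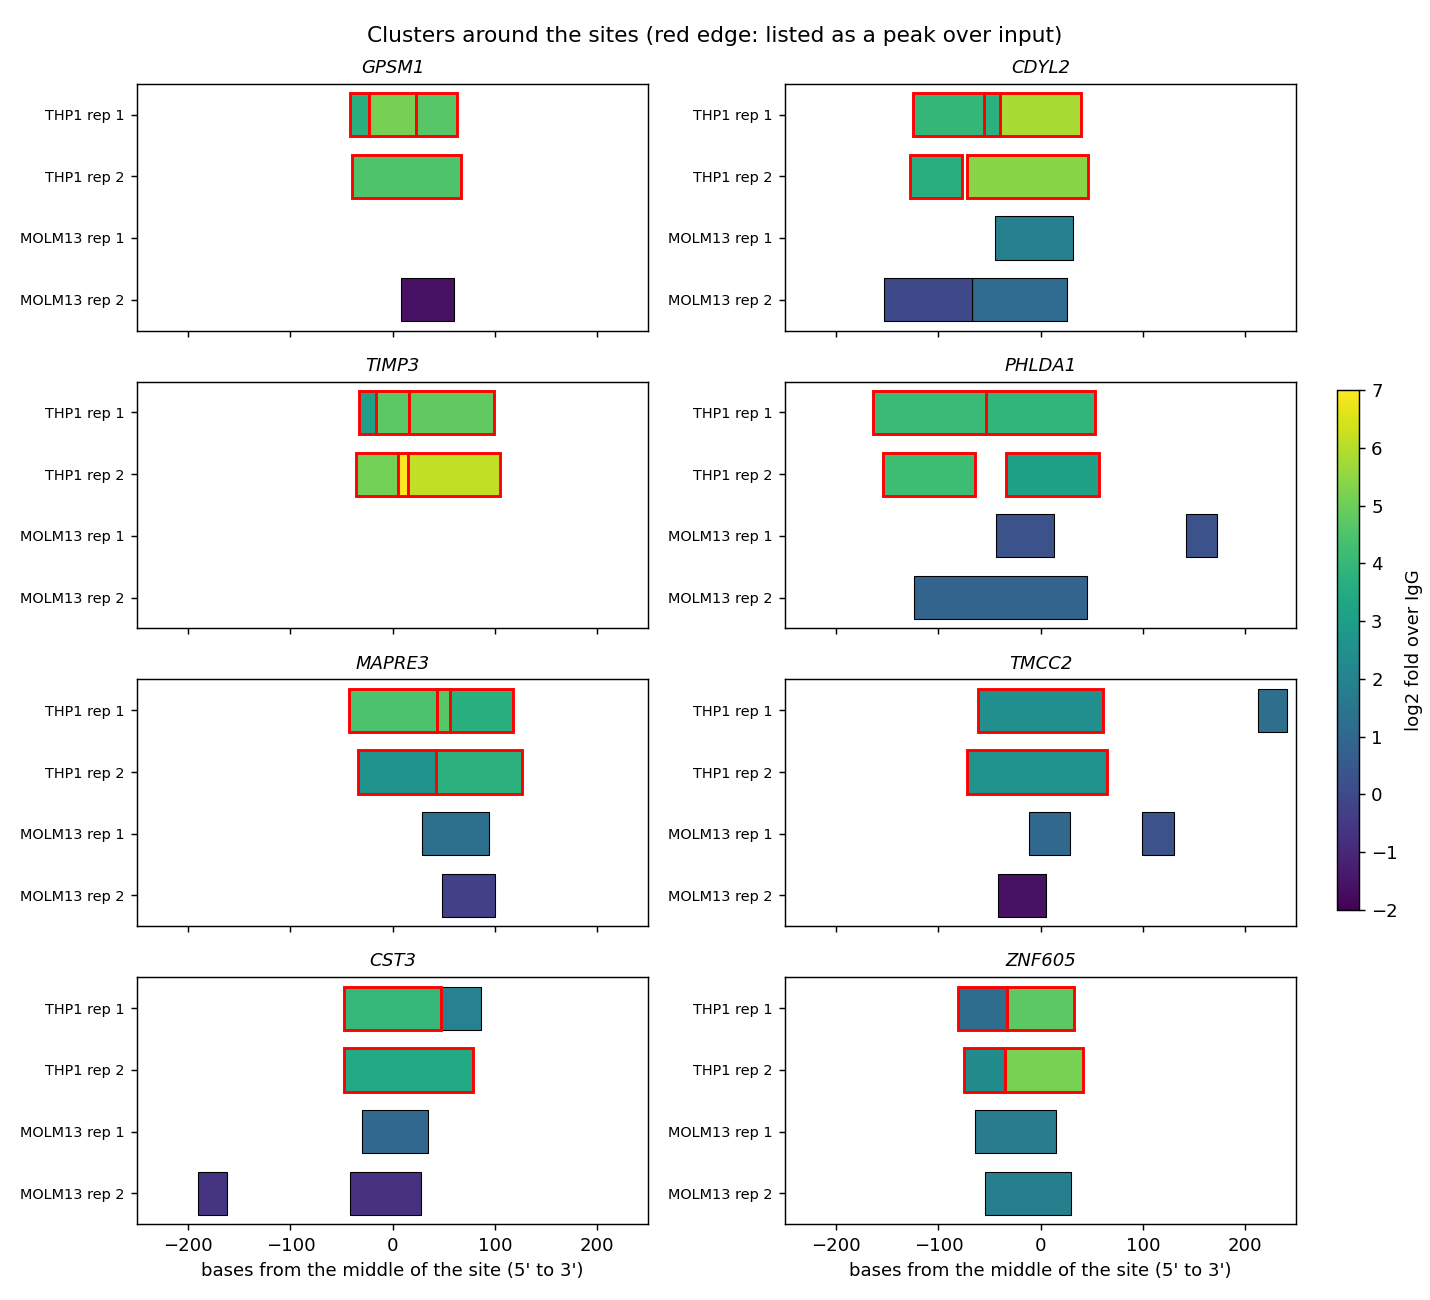
Clusters within 250 bases of the middle of each site, in the direction of transcription, with 1 row per IP library, colour for the log2 fold over IgG and a red edge for clusters listed as peaks over input. In 7 of the 8 genes at least 1 MOLM13 row holds a cluster over the THP1 site, and TIMP3 has none.

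More clusters were listed in THP1 than in MOLM13 for 7 of the 8 genes within their RefSeq bounds, to very different degrees. The same held for 77 of the 100 other genes of the class, for 37.0% of the 3572 targets of both lines and for 37.2% of 10760 protein-coding genes with clusters in both lines. Neither the amount of each gene's RNA nor the read depth is given in the files. Within the RefSeq bounds of TIMP3 the lists held 29 and 39 clusters in THP1, covering 1574 and 1731 bases, against 1 and 4 in MOLM13, covering 43 and 228 bases. CDYL2 had 44 and 45 clusters in THP1 over 2318 and 2197 bases, against 4 and 3 in MOLM13 over 189 and 230 bases. For both genes the THP1 replicates lay far above the MOLM13 replicates across the whole gene, introns included. ZNF605 followed with 15 and 19 in THP1, against 3 and 5 in MOLM13.

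In the other 5 genes the lists differed less. MAPRE3 had 6 and 6 clusters in THP1 and 1 and 3 in MOLM13, and GPSM1 had 15 and 14 in THP1 and 9 and 10 in MOLM13. CST3 had 7 and 10 in THP1 and 4 and 6 in MOLM13, and PHLDA1 had 4 and 5 in THP1 and 2 and 3 in MOLM13. TMCC2 had 2 and 1 in each line. Only in TMCC2 were the lines level, and in the other 7 genes the sum over replicates was higher in THP1.

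Within the RefSeq bounds, the ratio of THP1 to MOLM13 clusters, summed over replicates, ranged from 1.0 for TMCC2 to 13.6 for TIMP3, with a median of 2.4. Within the bounds of the genes' own peaks it ranged from 1.0 for TMCC2 to 14.2 for CDYL2, with TIMP3 at 13.5 and a median of 2.75. All of these peaks are from THP1, so the bounds were drawn around THP1 clusters and favour THP1. For GPSM1 the ratio was 4.0 within them, against 1.53 within the RefSeq bounds. No excess of THP1 is read from the ratios within the peaks' bounds. With touching clusters counted as 1, the median within the peaks' bounds was 1.83. The ratio within RefSeq bounds exceeded 2 in 4 of the 8 genes, in 40 of the 100 other genes of the class and in 9.1% of 10760 protein-coding genes with clusters in both lines. Among the 3572 targets of both lines it did so in 3.19%. The medians were 1.5 in the other genes of the class, 0.92 in the shared targets and 0.92 in all 10760 genes. Less RNA of a gene in MOLM13 and less binding to it cannot be told apart from these lists, and the part of RNA amount in the absence of MOLM13 peaks was not tested.

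**Figure D4:**
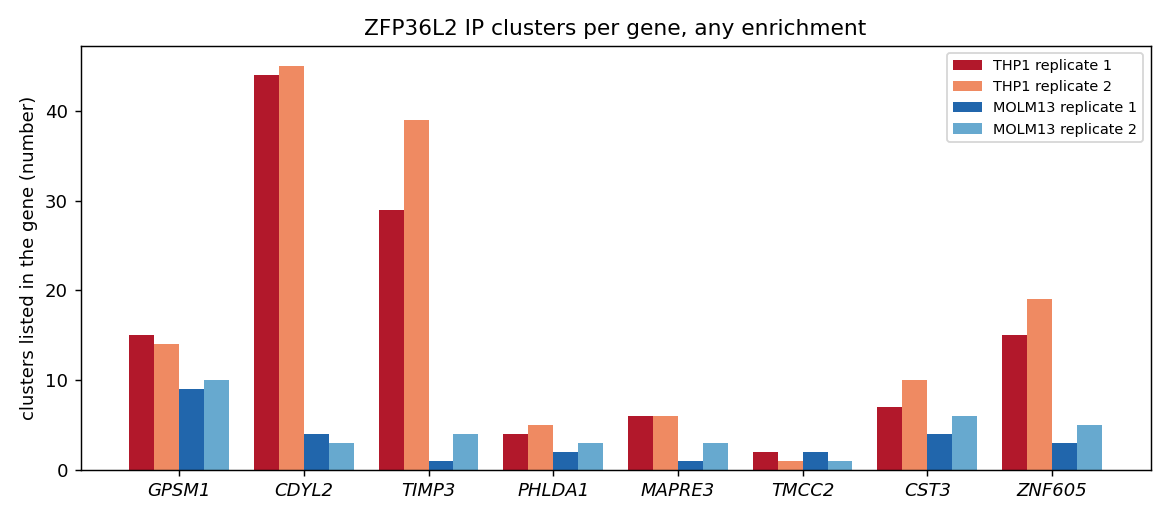
Number of clusters, whatever their enrichment, listed within the RefSeq bounds of each of 8 genes on its strand, with 1 bar per IP library (THP1 red, MOLM13 blue). CDYL2 (44 and 45 in THP1, 4 and 3 in MOLM13) and TIMP3 (29 and 39, and 1 and 4) differ most, and TMCC2 (2 and 1 in each line) does not.

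Across the whole genes, 23 of 122 and 22 of 139 clusters were enriched over IgG in THP1, where 5.74% and 8.36% of all clusters were. These counts include 2 clusters per replicate in ZNF605 whose peaks carry the names of both CHFR and ZNF605. In MOLM13 0 of 26 and 0 of 35 were, where 5.11% and 2.49% of all clusters were and those shares would give 1.33 and 0.873 clusters. The genes were chosen for high THP1 folds over input and for no MOLM13 peak, from the same IP libraries. The THP1 counts and the MOLM13 counts of 0 therefore follow in part from the choice, and nothing is read from them.

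The authors' tables listed 28 and 21 peaks over input for the 8 genes in THP1, among the 12.6% and 13.1% of clusters that were listed over input. They listed none in MOLM13, where 10.3% and 7.9% of clusters were listed. Of the THP1 peaks 21 and 16 were annotated to 3' UTRs and 7 and 5 to introns. Joined where they overlap or touch, they made 19 regions, of which 13 held peaks of both replicates. Of these 13, 9 lay in 3' UTRs and 4 in introns. The TMCC2 site and a proximal intron region of CDYL2 lacked a peak enriched over IgG in each replicate. Intron peaks named for both CHFR and ZNF605 were left out of these counts, though both THP1 replicates had them. All reproducible intron regions counted belonged to CDYL2 and TIMP3, the genes with the most clusters in THP1. The sites lay between 91 bases (GPSM1) and 5683 bases (CDYL2) from the RefSeq 3' end of their gene, with TIMP3 at 103, TMCC2 at 371 and MAPRE3 at 643 in the nearer part of that range.

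The choice of genes by the lower of the THP1 folds over input bears on how far the replicates differ, and the differences are given as descriptions. The absolute difference in log2 fold over input ran from 0.20 for CST3 to 0.86 for GPSM1, with a median of 0.65, against a median of 0.52 over all 1452 sites. Replicate 2 was the higher in 4 of the 8 genes. Over IgG the difference at the 8 sites ran from 0.11 to 2.48, the latter for TIMP3. Its median was 0.59 at the 8 sites and 0.70 at all sites.

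Many of the folds take few distinct values. The TMCC2 pair of fold and −log10 p in replicate 1 was shared by 59 peaks of that table, itself included, and the CST3 pair by 45. The fold over input minus the fold over IgG of the same peak was 1.24 in THP1 replicate 1 for 5 of the 8 sites, and 6211 of 19306 peaks (32.2%) had that same difference. For GPSM1 and PHLDA1 it was 2.24, exactly 1 more. Folds over input and over IgG share the reads of the IP, and they are not independent measures of a site.

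Relatives of the 8 genes were listed by family: other CDY, GPSM, PHLDA, TIMP, MAPRE, TMCC and cystatin genes and the zinc finger genes next to ZNF605, 28 in all. A relative was a target when both replicates of a line had a peak over input under its name, in whatever part of the gene. In THP1 8 of the 15 relatives with clusters in both replicates were targets, against 36.1% of all genes with clusters. In MOLM13 4 of 15 were, against 32.6%. CDYL, GPSM2, MAPRE1 and ZNF26 were targets of both lines, and MAPRE2, TMCC1, CSTA and ZNF268 of THP1 alone, a difference that was not tested. All GPSM2 peaks lay in introns. CDYL, MAPRE1 and ZNF26 had 3' UTR peaks, but none of them in both replicates of both lines. With thresholds of 4 and 5 the THP1 count fell to 4.

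CDYL, a transcriptional corepressor, had a highest log2 fold over input of 5.57 and 4.08 in THP1 and 4.85 and 5.51 in MOLM13. MAPRE1, an end-binding protein like MAPRE3, had 4.60 and 5.11 in THP1 and 4.93 and 4.54 in MOLM13. ZNF26 had 5.72 and 6.59 in THP1 and 4.54 and 4.50 in MOLM13. GPSM2, which orients the mitotic spindle, had 3.17 and 4.87 in THP1 and 3.77 and 4.22 in MOLM13. The values of the lines overlapped for CDYL, MAPRE1 and GPSM2, while both THP1 values of ZNF26 lay above its MOLM13 values. Each value is the highest anywhere in the gene and may come from a different site in each library. No difference between the lines is read from them.

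Among the relatives counted in THP1 alone, the microtubule gene MAPRE2 had 3.83 and 4.08, TMCC1 4.81 and 4.29, the cystatin gene CSTA 4.95 and 3.47, and ZNF268 5.07 and 4.38 over input. All peaks of these 4 genes lay in introns. TMCC1 also had a peak of 3.68 in MOLM13 replicate 1. TIMP2 had an intron peak of 3.92 in THP1 replicate 1 alone, and ZNF891 one of 3.77 in MOLM13 replicate 1 alone.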

How the data were processed

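Tools listed without a role, per the submitters' processing notes, are STAR 2.5.0c, cutadapt 1.14, edgeR and Picard 2.6.0. The same notes list hg38 beside hg19 and GRCh37, and the coordinates fit hg38. No source used here states the peak caller. Per the labels' protocols, cells were irradiated at 254 nm (400 mJ/cm2), 2% of the lysate was kept as input and 30 to 105 kDa was excised. Clusters were called per IP, not on pooled samples. The deposited tables give, per cluster, the authors' −log10 p-value (capped at 400) and log2 fold over input for listed peaks, and over IgG for every cluster. Whether both THP1 replicates used the same input library is not stated.

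With pandas 2.3.3, IgG lists were tied to input tables by identical coordinates (19306 of 19325 and 18871 of 18901 THP1 peaks). Of 6824 gene names 6428 matched RefSeq (GRCh38.p14), and 98.3% of 64218 so named peaks lay inside that gene. Clusters were assigned to genes by coordinates and strand. The strand of 3208 protein-coding genes was not in the tables used, and clusters on either strand were counted for them. Interval functions were tested on simulated data. The genes, lists and settings were chosen with earlier results of these data known. Named were the 8 genes, relatives with a peak, the next 3 genes in order and the 3 most alike. No test was run, as all values are descriptions. AU-rich motifs at the sites were not analysed here for want of a genome sequence.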

Additional observations from a re-analysis of the deposited data

How the results depend on the processing

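Leaving out either THP1 replicate, or raising the thresholds to 4 and 5, cannot remove the site of a gene chosen for high folds in both replicates, so nothing is read from the 8 sites that remained. With peaks paired by 0.5 of the shorter one, the site moved in MAPRE3. Its lower fold over input was then 4.95, below the 5.15 of ZNF605, the last gene inside the choice. The order of the other genes of the class under this pairing is not given here. The 7 sites enriched over IgG became 8 with thresholds of 2 and 2, 4 with thresholds of 4 and 5, 6 with each list's median subtracted, and 7 without either THP1 replicate. MOLM13 clusters in both replicates lay at 5 sites, at 6 with a margin of 50 bases, and at 6 in each MOLM13 replicate by itself. The median ratio of THP1 to MOLM13 clusters was 2.4 within RefSeq bounds. It was 2.75 within the bounds of the genes' own peaks, which are all from THP1 and so favour that line. Within the peaks' bounds it was 1.83 with touching clusters merged, and between 2.0 and 3.0 with 1 replicate left out. Peaks per THP1 replicate, 24.5 on average, were 17.0 once merged. The 8 relatives counted as THP1 targets became 4 with thresholds of 4 and 5, and were 8 and 9 without THP1 replicate 1 and replicate 2. In MOLM13 the 4 became 3 with those thresholds, and 4 and 6 without MOLM13 replicate 1 and replicate 2. No paired analysis was possible because no result comes from a test. The motif settings were not run. Read depth is unknown.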

Other observations

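The class was chosen for having no MOLM13 peak and the shared targets for having one, from the same IP libraries, so the following counts are descriptions and no difference is read from them. Of the 100 other genes of the class, 80 had a MOLM13 cluster at the site in both replicates and 11 in neither, and 2 had one enriched over IgG in both. Of 1179 THP1 genes that were also MOLM13 targets, 1174 had a cluster at the site in both MOLM13 replicates and 645 had one enriched over IgG in both. WWC2 and DMXL2, the genes next to the 8, had 38 and 38 clusters in THP1 against 2 and 1 in MOLM13, and 65 and 65 in THP1 against 6 and 7 in MOLM13. RYK, the next in order, differed less, with 29 and 26 in THP1 against 12 and 18 in MOLM13. OTX1, among the most alike, had 3 and 2 in THP1 against 2 and 2 in MOLM13.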
